A study of Mus musculus with 24 samples.

Results

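Brain regions of male MG-cKO mice were set against brain regions of male BMM-cKO mice on 1 slide scan, scan 2. The groups were taken from the labels: regions 5 to 8 of the scan are MG-cKO and regions 1 to 4 are BMM-cKO. They make up 8 of the 24 regions used here, and all 19962 targets of the deposited table were compared. The regions were profiled on the GeoMx platform, in which probes carrying DNA tags bind RNA in a tissue section and the tags of each selected area are collected and counted by sequencing. Per the labels, the sections were frozen slices of perfusion-fixed brain stained for Tmem119, a microglial marker, and Iba-1, a marker of microglia and macrophages, and every region carries the cell type label Macrophage. The title of the series refers to Lyn kinase of macrophages and to SAH (subarachnoid haemorrhage), the design text describes 4 regions for each slice, and the Sham regions it mentions are not analysed here.

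MG-cKO and BMM-cKO are genotype labels that the labels do not spell out. The labels give no Cre driver, age, time after haemorrhage or animal number for either group. The 4 WT male regions of scan 2 (regions 9 to 12), called WT-SAH in the design text, are given beside the knockouts where they help to place a level. MG-cKO, BMM-cKO and WT females, 4 regions each, were on scan 3, so that sex and scan cannot be told apart. No label ties a region to an animal. If the 4 regions of a group came from 1 slice, every p-value below rests on the spread among regions of that slice and is too small for a statement about mice.

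Lyn is a Src family tyrosine kinase of myeloid and B cells that phosphorylates both activating and inhibitory receptors, and it is one of several such kinases in microglia and macrophages. Microglia are the resident macrophages of the brain parenchyma, while monocyte-derived macrophages enter it from the blood after injury. A section area drawn around such cells also holds neurons, glia and vessels, and neuropeptide genes such as Pmch and Hcrt mark neurons of particular brain areas, the lateral hypothalamus in both cases.

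MG-cKO regions had higher signal for 2331 of 19962 targets (11.7%), among them Pmch. They also had higher signal for 8 of 22 pan-neuronal markers, Snap25 and Thy1 among them, and for 17 of 29 oxidative phosphorylation genes. Of these 8 and 17, 3 and 4 were also called in the second setting described below. Signal was lower in MG-cKO regions for 3298 targets (16.5%), most of them below 1.5 times the probe background. At or above that mean level, 701 of 1825 targets were lower, Aif1 among them, and 237 were higher. Pmch, the precursor of melanin-concentrating hormone, was 2.57-fold higher in MG-cKO regions, and Snap25, a synaptic vesicle fusion protein, was 2.24-fold higher. On these values no target called lower reached a 2-fold difference, while 4 of those called higher did. Background was not subtracted, and 592 of the 701 lower targets had mean levels of 1.5 to 2 times it. This leaves little room for larger falls, so the sizes of rises and falls cannot be compared directly. Fewer cells of a type and less RNA per cell cannot be told apart in such areas.

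MG-cKO regions held 2423752 to 3736541 tags and BMM-cKO regions 6672788 to 10779960, and the median target had 113 to 181 tags in MG-cKO regions and 310 to 506 in BMM-cKO regions. Levels are given here as the signal of a target divided by that of the region's negative probe, which matches no transcript and marks the background. The median target stood at 1.04 to 1.07 times the negative probe in MG-cKO regions and at 1.00 to 1.02 times in BMM-cKO regions, so that most targets lay at background. Targets above 2 times the negative probe made up 2.39% ± 1.00 of all in MG-cKO regions and 2.24% ± 0.378 in BMM-cKO regions (SD, n = 4 each, exact two-sided permutation p = 0.857). Region 5 stood apart within MG-cKO: 0.902% of its targets passed that level, against 2.71% to 3.09% in regions 6 to 8. Its log2 values correlated across targets at 0.818 to 0.832 with the other MG-cKO regions, which correlated with each other at 0.879 to 0.905. With BMM-cKO regions it correlated at 0.635 to 0.661, and regions 6 to 8 at 0.775 to 0.837. With WT male regions it did not stand apart, at 0.824 to 0.881 beside 0.826 to 0.871 for regions 6 to 8. BMM-cKO regions correlated with each other at 0.957 to 0.969. Results are therefore also given without region 5.

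The profile held more than the label Macrophage names. Of 24 homeostatic microglia markers, 3 had a mean level above 2 times the negative probe in MG-cKO regions and 2 in BMM-cKO regions, against 12 and 5 of 22 pan-neuronal markers and 10 and 8 of 18 astrocyte markers. Over all targets that share was 2.39% and 2.24% per region, as given above. At a mean level of 1.5 times or more over the 8 regions stood 8 of the 24 microglia markers, beside 1825 of all 19962 targets. Tmem119 itself lay at background in both groups, at 0.826 ± 0.105 times the negative probe in MG-cKO regions and 0.871 ± 0.0548 times in BMM-cKO regions (SD, n = 4 each). None of the 12 markers of border-associated macrophages and none of the 13 of infiltrating monocytes exceeded 2 times the negative probe in either group. The profiles are thus described as those of mixed brain tissue areas.

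Changes are given as the log2 difference of MG-cKO minus BMM-cKO after each region was centred on its median target, tested with limma and called at a Benjamini-Hochberg adjusted p under 0.05 over all 19962 targets. Of these, 2331 (11.7%) were higher in MG-cKO regions and 3298 (16.5%) were lower. All limma p-values treat regions as independent and are too small where regions share an animal. Among the 1825 targets with a mean level of at least 1.5 times the negative probe over the 8 regions, 237 (13.0%) were higher and 701 (38.4%) were lower. On the values as deposited, the median target was 1.14 log2 units lower in MG-cKO regions, because the deposited scale differs by group, and 41 of the genes named below change sign on that scale. Division by the negative probe in place of the median shifted all changes by 0.06 and gave 3694 targets higher and 2256 lower, and centring on the 75th percentile gave 3486 higher and 2562 lower. Quantile normalization gave 452 higher and 645 lower at the mean level of 1.5 times the negative probe. The count of 237 higher was 141 without region 6, 131 without region 7, 142 without region 1 and 156 without region 3.

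The changes were not spread evenly over the table, which lists targets in alphabetical order. Targets whose names begin with T to Y (2400 targets) had a median change of -0.31, and 60.5% of them were called lower in MG-cKO regions, against a median of 0.03 and 10.5% lower among the other 17562. Among names beginning with N, 49.5% were called higher. The changes stepped up from a median of -0.26 over the 50 targets ending at Thap2 to 0.18 over the 50 starting at Thap3, and down from 0.14 ending at Tkt to -0.27 starting at Tktl1. A running median over each target and 50 neighbours on either side in name order accounted for 42.1% of the variance of the change in males and for 6.98% in females, as the plot of change against name order shows.

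**Figure D1:**
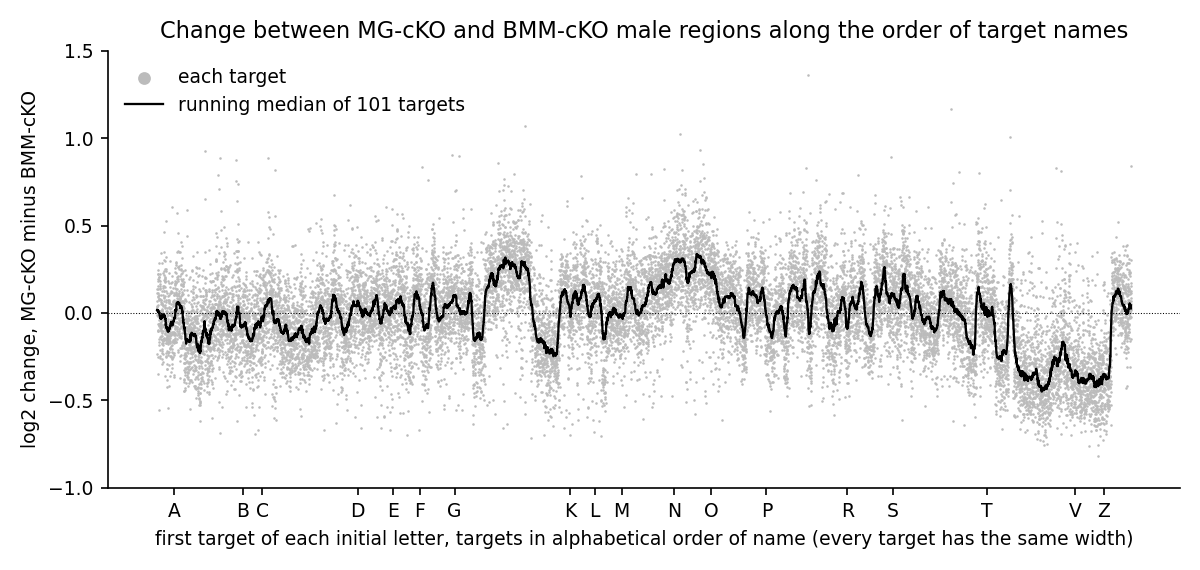
Log2 change, MG-cKO minus BMM-cKO males on scan 2, of each target (grey points) and its running median (black line, each target with 50 neighbours on either side) against the position of the target in alphabetical order. The running median lies between -0.45 and 0.34 and is lowest among names from T to Y.

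Taken against the mean of the 24 regions, the steps were widest in region 5, in all 4 BMM-cKO regions and in all 4 WT male regions. A region that stays near 0 is close to that mean, which does not show that it has no steps. The running median of the centred log2 values, taken as deviations from each target's mean over the 24 regions, spanned -0.35 to 0.29 in region 5, stayed between -0.17 and 0.14 in the other MG-cKO regions, lay between -0.28 and 0.33 in BMM-cKO regions and between -0.36 and 0.26 in WT regions. The 1195 probes for chemosensory receptors (of smell, taste, pheromones and trace amines) and hair keratin-associated proteins, genes of other tissues, moved with it: 9.21% of them were called higher and 16.5% lower, beside 11.7% and 16.5% of all targets. Every change was therefore also computed after this running median was subtracted in each region, a setting chosen after the data were seen. Without region 5, 9.25% of all targets were called higher and 12.8% lower. Subtracting the neighbours left 899 targets (4.50%) higher and 913 (4.57%) lower over the table, and 134 (7.34%) higher and 282 (15.5%) lower at the mean level of 1.5 times the negative probe. Of the 1195 probes for genes of other tissues, 3.35% were still called higher and 2.59% lower after the subtraction. Calls thus remain among such probes in this setting too. At that level 100 targets (5.48%) were called higher and 269 (14.7%) lower with and without the subtraction. What made the steps was not tested.

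**Figure D2:**
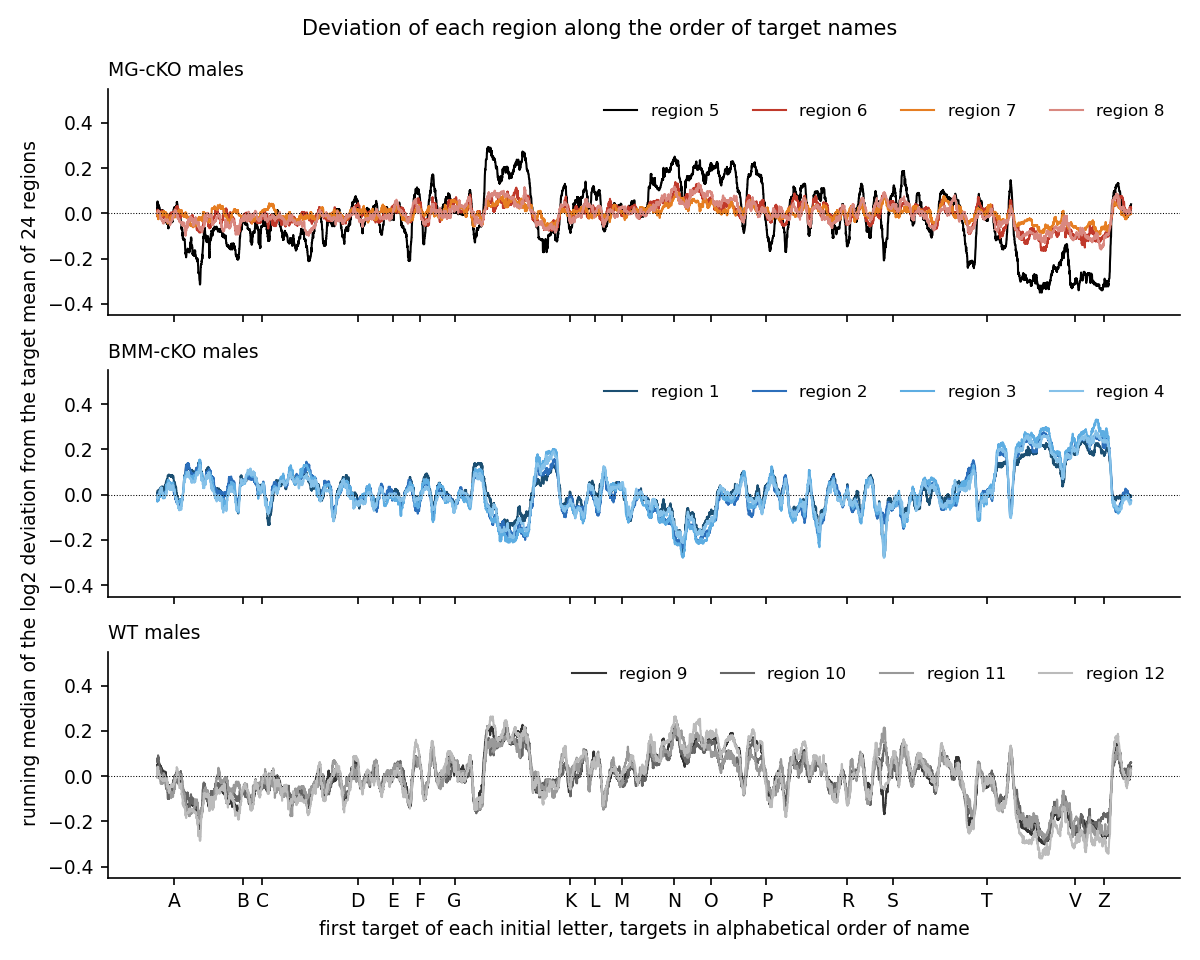
Running median (each target with 50 neighbours on either side) of each region's centred log2 value, as the deviation from the target's mean over the 24 regions, against position in the table, in 3 panels for MG-cKO, BMM-cKO and WT males. Among MG-cKO regions, region 5 (black) spans -0.35 to 0.29 and the other 3 stay between -0.17 and 0.14.

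Pmch was the most increased target. Its level was 7.55, 5.05, 11.8 and 4.22 times the negative probe in MG-cKO regions 5 to 8, against 1.57, 1.62, 3.39 and 4.20 times in BMM-cKO regions 1 to 4. The groups did not overlap, but the lowest MG-cKO region lay next to the highest BMM-cKO region. Among all targets, 21.9% had levels without overlap with MG-cKO higher and 13.0% with MG-cKO lower. All 8 regions exceeded the WT male regions, which lay at background (0.833 to 0.971 times). The log2 change was 1.36 (SE 0.22, limma adjusted p = 4.83e-05), it was 1.39 with the neighbours subtracted (limma adjusted p = 0.000103), and it was 1.29 without region 5 (limma adjusted p = 0.000583).

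Hcrt, the orexin precursor, is made by another set of lateral hypothalamic neurons. It measured 4.74, 0.655, 1.82 and 17.9 times the negative probe in MG-cKO regions, against 1.1, 0.852, 1.31 and 3.58 times in BMM-cKO regions. One region in each group, region 8 and region 4, held most of it, region 6 was at background, and the groups overlapped. The log2 change of 1.07 (SE 0.47) did not pass the threshold (limma adjusted p = 0.0888), although it did without region 6 (1.83, limma adjusted p = 0.00113) or without region 4 (1.5, limma adjusted p = 0.0220). The SE and p-values of Hcrt carry the same limit as those of Pmch, since WT male and female regions lay at background. Cartpt, a hypothalamic and striatal peptide precursor, rose by 0.45 (SE 0.16, limma adjusted p = 0.0338) and lost its call without region 7 (0.23, limma adjusted p = 0.245), without region 1 (0.37, adjusted p = 0.120), without region 2 (0.46, adjusted p = 0.0580) or with the neighbours subtracted (0.47, adjusted p = 0.0551). Agrp, a peptide of arcuate neurons, fell by 0.47 (SE 0.08, limma adjusted p = 5.47e-05). It measured 1.06, 1.32, 1.25 and 1.43 times the negative probe in MG-cKO regions and 1.64, 1.71, 1.72 and 1.62 times in BMM-cKO regions. Over the 24 hypothalamic markers 2 rose and 2 fell, with a median change of 0.17 beside 0.00 over all targets.

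The promoters of both lateral hypothalamic peptide genes are shown because these genes carried the widest region-to-region range among the named genes. They span 250 bases before to 50 bases after the RefSeq gene start on GRCm38.p6, with a match to TATAAA in capitals. Pmch lies at chr10:88090822-88091121 on the plus strand and Hcrt at chr11:100762882-100763181 on the minus strand.
Pmch: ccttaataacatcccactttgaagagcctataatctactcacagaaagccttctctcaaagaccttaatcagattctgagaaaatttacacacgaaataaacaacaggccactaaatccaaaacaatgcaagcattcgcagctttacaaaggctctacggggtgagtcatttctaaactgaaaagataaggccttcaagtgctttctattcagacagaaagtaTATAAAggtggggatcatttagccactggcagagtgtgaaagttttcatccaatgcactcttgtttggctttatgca
Hcrt: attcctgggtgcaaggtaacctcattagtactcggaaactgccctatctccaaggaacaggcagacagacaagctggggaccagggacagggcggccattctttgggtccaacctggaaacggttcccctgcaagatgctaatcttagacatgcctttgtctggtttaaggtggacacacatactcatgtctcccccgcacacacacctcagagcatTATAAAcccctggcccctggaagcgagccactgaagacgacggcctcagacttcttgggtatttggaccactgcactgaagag
The match starts 27 bases before the gene start in Pmch and 33 bases before it in Hcrt. On either strand, 4473 of 32851 promoters of this length (13.6%) hold these letters.

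**Figure D3:**
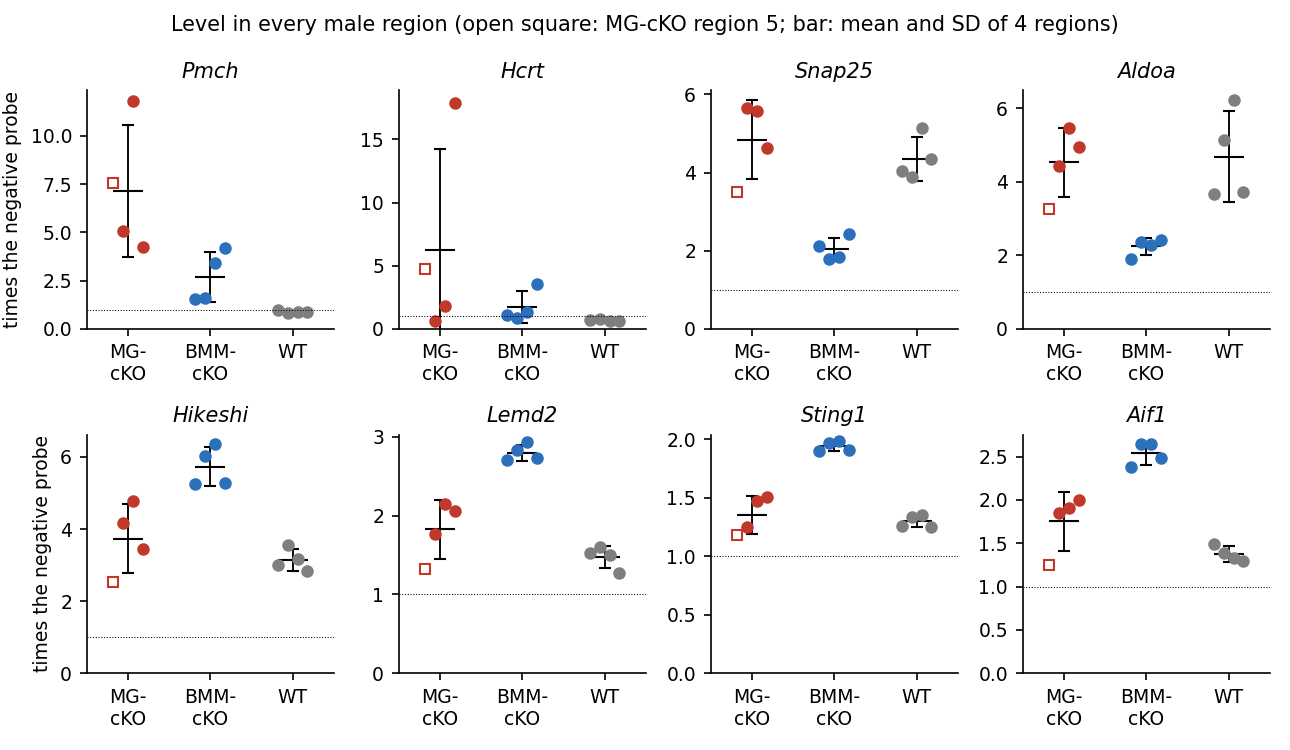
Level of 8 genes in each region, in multiples of the region's negative probe, in MG-cKO, BMM-cKO and WT males on scan 2, with the mean and SD of each group as a bar and region 5 as an open square. Pmch, Snap25 and Aldoa lie higher in MG-cKO than in BMM-cKO regions, Hikeshi, Lemd2, Sting1 and Aif1 lie lower, and Hcrt is high in regions 5 and 8.

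Some pan-neuronal markers rose. Of 22 such markers 8 were higher in MG-cKO regions and none lower, with a median change of 0.47, and with the neighbours subtracted 5 were higher and 1 lower, with the same median. Only 3 were called higher in both settings. Over all targets 11.7% were higher, and 4.50% with the neighbours subtracted. Snap25 measured 3.49, 5.66, 5.58 and 4.64 times the negative probe in MG-cKO regions, against 2.12, 1.78, 1.85 and 2.42 times in BMM-cKO regions. The groups did not overlap, and region 5 was the lowest of the MG-cKO regions. Its log2 change was 1.16 (SE 0.34, limma adjusted p = 0.00926) and stayed called with the neighbours subtracted (1.1, limma adjusted p = 0.0304). Thy1, a surface glycoprotein of projection neurons, stood at 3.50 ± 0.559 times the negative probe in MG-cKO regions and 1.65 ± 0.192 times in BMM-cKO regions (SD, n = 4 each), a change of 1.00 (SE 0.22, limma adjusted p = 0.00121). The neurofilament genes Nefl (0.69, limma adjusted p = 0.00312) and Nefm (0.71, limma adjusted p = 0.00229) also rose, and both calls were lost with the neighbours subtracted (0.45, adjusted p = 0.0862 and 0.47, adjusted p = 0.0594).

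Several of the largest rises were in other genes with known roles in neurons. Ncdn, a cytoplasmic protein of dendrites, measured 2.03, 3.92, 4.45 and 2.82 times the negative probe in MG-cKO regions, against 1.46, 1.43, 1.43 and 1.61 times in BMM-cKO regions, and rose by 1.03 (SE 0.18, limma adjusted p = 0.000129). Nptx1, a secreted pentraxin of excitatory synapses, measured 1.72, 2.84, 2.57 and 1.78 times in MG-cKO regions, against 0.966, 1.13, 1.07 and 1.19 times in BMM-cKO regions, and rose by 0.93 (SE 0.14, limma adjusted p = 1.89e-05). In both genes the groups did not overlap, and the spread was wider among MG-cKO than among BMM-cKO regions. Atp1b1, a subunit of the sodium pump, rose by 0.87 (SE 0.25, limma adjusted p = 0.00904), and Gnao1, the G protein alpha subunit of the brain, by 0.86 (SE 0.20, limma adjusted p = 0.00201). All 4 were also called with the neighbours subtracted. Rtn1, a reticulon of the endoplasmic reticulum, rose as well (0.89, limma adjusted p = 0.0251), but lost the call with the neighbours subtracted (0.80, adjusted p = 0.0797). It also lost it without region 6 (adjusted p = 0.0530), 7 (adjusted p = 0.0810), 1 (adjusted p = 0.0856), 3 (adjusted p = 0.0526) or 4 (adjusted p = 0.0502).

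Of 17 synaptic and activity-induced genes 7 rose and 1 fell, with a median change of 0.44, and 2 rose and 1 fell with the neighbours subtracted (median 0.21). In both settings 1 rose and none fell. Grin1, the obligate NMDA receptor subunit, rose by 0.59 (limma adjusted p = 0.00967) and Npas4, a transcription factor induced by neuronal activity, by 0.47 (limma adjusted p = 0.000242), but with the neighbours subtracted their changes of 0.34 (adjusted p = 0.186) and 0.16 (adjusted p = 0.210) were not called. Npas4 lay near background, at 1.15 ± 0.0578 times the negative probe in MG-cKO regions and 0.796 ± 0.0606 times in BMM-cKO regions (SD, n = 4 each). Markers of cortical and hippocampal excitatory neurons did not rise as a list: 4 of 18 were higher and 1 lower, with a median change of -0.08. Nrgn, a postsynaptic calmodulin-binding protein of forebrain neurons, measured 1.65, 3.85, 3.51 and 2.04 times in MG-cKO regions, against 1.46, 1.46, 1.29 and 1.28 times in BMM-cKO regions (change 0.85, SE 0.23, limma adjusted p = 0.00545; with the neighbours subtracted 0.60, adjusted p = 0.102). Rasgrf2, a Ras exchange factor of upper cortical layers, rose by 0.58 (SE 0.15, limma adjusted p = 0.00472). Both were highest in regions 6 and 7. The counts of the next lists are small and stand beside 11.7% higher and 16.5% lower over all targets. Of 18 striatal markers 3 rose and 1 fell, of 12 thalamic markers 3 rose and none fell, and of 11 GABA neuron markers 1 rose and 2 fell, one of them Dlx5, a transcription factor of GABA neuron precursors (-0.60, limma adjusted p = 0.000113).

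Among targets below the mean level of 1.5 times the negative probe, the largest rises were in Rbfox1, a neuronal splicing factor (0.79, SE 0.13, limma adjusted p = 4.83e-05), Cbln1, a synapse organiser (0.82, SE 0.19, limma adjusted p = 0.00212), Gpihbp1, the endothelial anchor of lipoprotein lipase (0.77, SE 0.15, limma adjusted p = 0.000325), and Fam234b (0.76, SE 0.12, limma adjusted p = 3.56e-05). Rbfox1 stood at 1.57 ± 0.265 times the negative probe in MG-cKO regions and 0.857 ± 0.0561 times in BMM-cKO regions (SD, n = 4 each). Fam234b stood at 1.42 ± 0.138 times in MG-cKO regions and 0.798 ± 0.0182 times in BMM-cKO regions. In BMM-cKO regions all 4 genes had means at or below background, and all 4 calls remained with the neighbours subtracted. Gpihbp1 averaged 0.903 times the negative probe in MG-cKO regions, and only region 6 exceeded background there (1.39 times). Its change was 0.52 with the neighbours subtracted. Tuba1a, an alpha tubulin (0.83, limma adjusted p = 0.0213), Faim2, a neuronal inhibitor of Fas-induced death (0.83, limma adjusted p = 0.00633), and Tecr, an enzyme of very-long-chain fatty acid synthesis (0.65, limma adjusted p = 0.00901), were chosen after their values were seen, as examples whose change was larger with the neighbours subtracted (1.11, 0.88 and 0.90). Tuba1a lost the call of the first fit without region 6 (adjusted p = 0.0665), 7 (adjusted p = 0.0681), 3 (adjusted p = 0.0530) or 4 (adjusted p = 0.0518).

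Some genes of energy metabolism rose, and for oxidative phosphorylation the count differed between the settings. Of 25 glycolysis and hypoxia genes 7 rose and 3 fell, and with the neighbours subtracted 6 rose and none fell, with medians of 0.19 and 0.20. Aldoa, the glycolytic aldolase, measured 3.27, 4.44, 5.45 and 4.94 times the negative probe in MG-cKO regions, against 1.91, 2.37, 2.28 and 2.41 times in BMM-cKO regions. The groups did not overlap, and the change was 0.93 (SE 0.22, limma adjusted p = 0.00242) and 1.02 with the neighbours subtracted (limma adjusted p = 0.00232). Gapdh rose by 0.90 (SE 0.29, limma adjusted p = 0.0191), with adjusted p between 0.0542 and 0.0569 without region 7, 1 or 3, and Gpi1, the glucose-6-phosphate isomerase, by 0.70 (SE 0.14, limma adjusted p = 0.000416). Of 29 oxidative phosphorylation genes 17 rose and 1 fell, with a median of 0.34, and 5 rose and none fell with the neighbours subtracted (median 0.25). Of the 17, 4 were called in both settings. Cox6a1, a cytochrome c oxidase subunit, rose by 0.67 (SE 0.15, limma adjusted p = 0.00156) and stayed called, while the complex I genes Ndufb9 (0.44, limma adjusted p = 0.000588) and Ndufa9 (0.34, limma adjusted p = 0.00180) were no longer called once the neighbours were subtracted (0.16, adjusted p = 0.211 and 0.05, adjusted p = 0.705). Both lie in the stretch of N names in which 49.5% of all targets were called higher.

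Of 24 cytosolic ribosomal protein genes 14 rose and none fell, with a median change of 0.33, but 1 rose and none fell with the neighbours subtracted (median 0.15), and 21 rose without region 5. Rplp1, a stalk protein of the large subunit, measured 2.03, 3.61, 3.46 and 3.47 times the negative probe in MG-cKO regions, against 1.85, 2.08, 2.01 and 1.84 times in BMM-cKO regions. Region 5 lay among the BMM-cKO regions and the other 3 above them (change 0.59, SE 0.15, limma adjusted p = 0.00365; 0.34 with the neighbours subtracted, adjusted p = 0.0497). Rplp0 (0.44, limma adjusted p = 0.000970) and Rplp2 (0.41, limma adjusted p = 0.00201) lost their calls with the neighbours subtracted (0.19, adjusted p = 0.112 and 0.16, adjusted p = 0.173). Of 18 heat shock and chaperone genes 2 rose, a share close to the 11.7% over all targets, the constitutive chaperones Hsp90ab1 (0.53, limma adjusted p = 0.0279) and Hspa8 (0.56, limma adjusted p = 0.0228), and none fell. Hsp90ab1 lost its call without region 6 (adjusted p = 0.0678), 7 (adjusted p = 0.0986), 8 (adjusted p = 0.0821) or 1 (adjusted p = 0.106), and Hspa8 without region 7 (adjusted p = 0.0924), 1 (adjusted p = 0.0769) or 3 (adjusted p = 0.0555). Of 20 ubiquitin and proteasome genes 3 rose and 2 fell.

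Of 18 astrocyte markers 4 rose and none fell, with a median change of 0.35 (0.24 with the neighbours subtracted, 2 rose), and 9 rose without region 5. Mt1, a metallothionein of glia, measured 2.07, 4.48, 4.35 and 2.81 times the negative probe in MG-cKO regions, against 1.87, 1.84, 1.81 and 1.55 times in BMM-cKO regions, and the groups did not overlap. Its change was 0.82 (SE 0.18, limma adjusted p = 0.000856) and it stayed called with the neighbours subtracted (0.66, adjusted p = 0.0196), unlike Mt3 (0.50, limma adjusted p = 0.00905; 0.34, adjusted p = 0.134). Of 22 haem and iron genes 3 rose and none fell. Fth1, the ferritin heavy chain, rose by 0.91 (SE 0.27, limma adjusted p = 0.0116) and stood at 6.58 ± 1.94 times the negative probe in MG-cKO regions and 3.35 ± 0.955 times in BMM-cKO regions (SD, n = 4 each). It lost the call without region 8 (adjusted p = 0.0543) or 3 (adjusted p = 0.0596) and with quantile normalization (0.58, adjusted p = 0.0765). Of 18 oligodendrocyte markers only Mbp, myelin basic protein, rose (0.63, limma adjusted p = 0.0427), with overlapping groups, and it was not called without region 5 (0.61, adjusted p = 0.0922), 6 (adjusted p = 0.0599), 8 (adjusted p = 0.144), 2 (adjusted p = 0.116) or 3 (adjusted p = 0.158) or with the neighbours subtracted (0.56, adjusted p = 0.130).

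**Figure D4:**
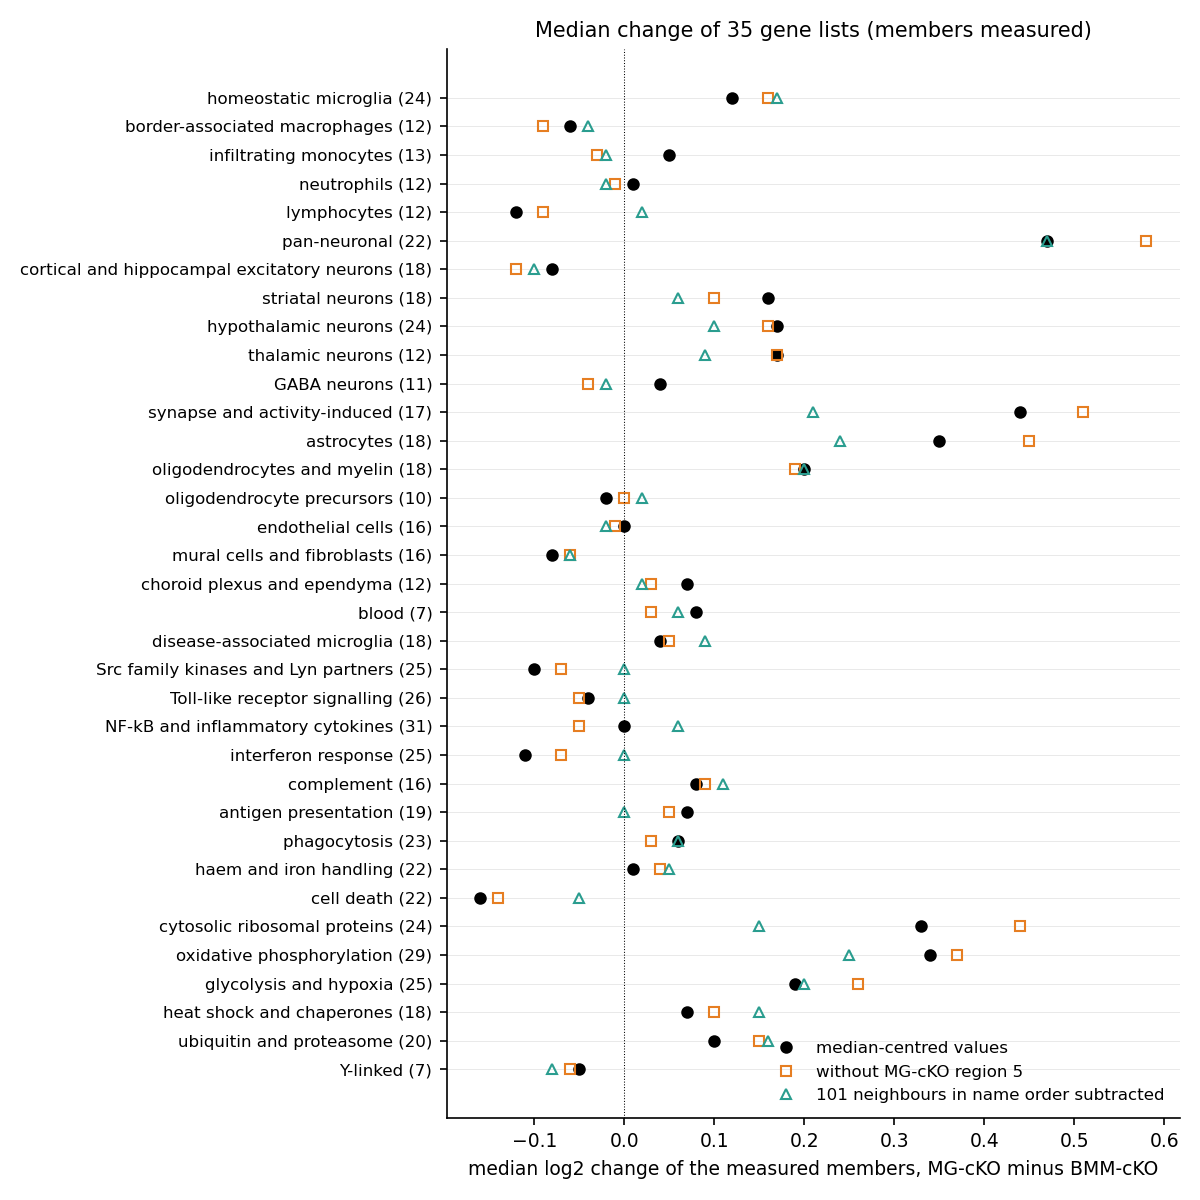
Median log2 change, MG-cKO minus BMM-cKO males, of the members of each of 35 gene lists, in 3 settings marked by symbol. Pan-neuronal markers lie at 0.47 with and without the neighbours subtracted, and ribosomal protein genes lie at 0.33 in the first setting and at 0.15 with the neighbours subtracted.

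Without region 5 the counts higher and lower were 9 and 0 for pan-neuronal markers, 8 and 0 for synaptic genes, 18 and 1 for oxidative phosphorylation and 7 and 2 for glycolysis. They were 7 and 3 for homeostatic microglia, 0 and 5 for Src family kinases and Lyn partners, 0 and 7 for Toll-like receptor genes, 1 and 6 for interferon genes and 0 and 6 for cell death genes. Of the 75 named genes, 73 stayed on their side of the threshold without region 5, the exceptions being Lyn and Mbp.

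The falls had a different character. At the mean level of 1.5 times the negative probe or more, the 12 largest were in genes of varied known roles, and 8 of these have names from T to Y. Vps54, a tethering factor of the trans-Golgi, measured 0.955, 1.18, 1.28 and 1.54 times the negative probe in MG-cKO regions, against 1.86, 1.99, 2.09 and 2.01 times in BMM-cKO regions. The groups did not overlap and region 5 was the lowest. The change was -0.76 (SE 0.10, limma adjusted p = 1.03e-05) and -0.41 with the neighbours subtracted (limma adjusted p = 0.00557). Trim43a (-0.76), Trmu, a tRNA-modifying enzyme (-0.75), Trim26, a ubiquitin ligase (-0.73), Yipf4, a Golgi membrane protein (-0.73), Traf6, the ubiquitin ligase downstream of Toll-like receptors (-0.73), and Trmt12, a tRNA-modifying enzyme (-0.71), were likewise called in limma, and with the neighbours subtracted their changes shrank to -0.33, -0.34, -0.31, -0.32, -0.33 and -0.30 and stayed called. When region 5 was also left out, Yipf4 (-0.24, adjusted p = 0.162), Traf6 (-0.30, adjusted p = 0.0581) and Trmt12 (-0.23, adjusted p = 0.105) lost the call. Xcl1, the chemokine lymphotactin (-0.70, limma adjusted p = 0.000302), was not called with the neighbours subtracted (-0.28, adjusted p = 0.154). Wnt2b (-0.82), Wnt9a (-0.75), both Wnt ligands, and Tor3a, a torsin (-0.72), were among the 4 largest falls below that level and were called in both settings.

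The other 4 of the 12 were little altered by the subtraction. Hikeshi, which carries Hsp70 proteins into the nucleus, measured 2.54, 4.18, 4.78 and 3.44 times the negative probe in MG-cKO regions, against 5.26, 6.04, 6.35 and 5.28 times in BMM-cKO regions, and changed by -0.72 (SE 0.19, limma adjusted p = 0.00537) or -0.81 with the neighbours subtracted (adjusted p = 0.00426). Lemd2, a protein of the inner nuclear membrane, measured 1.32, 1.77, 2.15 and 2.06 times in MG-cKO regions, against 2.71, 2.83, 2.93 and 2.73 times in BMM-cKO regions, and changed by -0.71 (SE 0.12, limma adjusted p = 5.83e-05) or -0.69 (adjusted p = 0.000153). In both genes the groups did not overlap and region 5 was the lowest. Hikeshi was not called when the 8 regions were fitted alone (adjusted p = 0.0549). Jup, plakoglobin of cell junctions (-0.70, limma adjusted p = 2.63e-05), and Eng, the endothelial TGF-beta co-receptor endoglin (-0.70, limma adjusted p = 6.63e-05), gave -0.67 and -0.62 with the neighbours subtracted. Gpr55, a lysolipid receptor (-0.63, limma adjusted p = 1.83e-05), and Exoc8, an exocyst subunit (-0.67, limma adjusted p = 7.71e-05), chosen after their values were seen, gave -0.90 and -0.76. In all 6 genes the WT male regions lay nearer to the MG-cKO than to the BMM-cKO regions. The mean level of WT females on the other scan lay nearer to that of the BMM-cKO males in all 6.

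Lyn lay at background in both groups. Its level was 0.973, 1.05, 0.878 and 1.18 times the negative probe in MG-cKO regions, against 1.1, 1.22, 1.11 and 1.16 times in BMM-cKO regions, and 1.01 to 1.05 times in WT male regions. The MG-cKO and BMM-cKO regions overlapped. The change of -0.24 (SE 0.08) was called (limma adjusted p = 0.0276) but was lost with the neighbours subtracted (-0.22, adjusted p = 0.0812), without region 5 (-0.23, adjusted p = 0.0623), without region 7 (-0.17, adjusted p = 0.134), without region 2 (-0.21, adjusted p = 0.0872) or without region 4 (-0.23, adjusted p = 0.0601). It was also lost with division by the negative probe (-0.18) and with centring on the 75th percentile (-0.19, adjusted p = 0.0917). Lyn RNA above background was not detectable in either group at this depth.

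Of the 25 Src family kinases and Lyn partners 2 rose and 7 fell, with a median change of -0.10, and with the neighbours subtracted none rose and 4 fell (median 0.00). Dok1, an adaptor that damps tyrosine kinase signalling (-0.59, SE 0.10, limma adjusted p = 6.63e-05), and Inpp5d, the phosphatase SHIP1 recruited by inhibitory receptors (-0.50, SE 0.10, limma adjusted p = 0.000470), were called in both settings (-0.60 and -0.41 with the neighbours subtracted). Inpp5d lay near background, at 0.799 ± 0.110 times the negative probe in MG-cKO regions and 1.08 ± 0.0724 times in BMM-cKO regions (SD, n = 4 each).

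Homeostatic microglia markers were split. Of 24, 7 rose and 3 fell, with a median change of 0.12, and with the neighbours subtracted 4 rose and 1 fell (median 0.17). In both settings 2 rose and 1 fell. Aif1, which encodes Iba-1, measured 1.25, 1.85, 1.91 and 2.00 times the negative probe in MG-cKO regions, against 2.38, 2.65, 2.64 and 2.48 times in BMM-cKO regions. The groups did not overlap, and the change was -0.62 (SE 0.10, limma adjusted p = 6.39e-05), -0.35 with the neighbours subtracted (limma adjusted p = 0.0107), and -0.27 when region 5 was left out as well (limma adjusted p = 0.0506). Tmem119 was not called (-0.14, limma adjusted p = 0.326) and changed sign with the neighbours subtracted (0.16, adjusted p = 0.382). P2ry13, a nucleotide receptor of microglia, rose by 0.27 (limma adjusted p = 0.0184; without region 6 adjusted p = 0.0603, without region 3 adjusted p = 0.0537) and C1qb, a complement subunit made by microglia, by 0.24 (limma adjusted p = 0.0461), both also with the neighbours subtracted. C1qb lost the call without any one of regions 6, 7, 8, 2, 3 or 4 (adjusted p between 0.0675 and 0.208), with a pseudocount of 10 (adjusted p = 0.0578) and when the 8 regions (adjusted p = 0.0581) or the 12 of scan 2 (adjusted p = 0.0629) were fitted alone. Selplg, the P-selectin ligand, rose by 0.31 (limma adjusted p = 0.0117), while the TGF-beta receptor Tgfbr1 fell by 0.38 (limma adjusted p = 0.000392), and both calls were lost with the neighbours subtracted (0.17 and -0.21). Selplg was also not called without region 6 (adjusted p = 0.0511) or 8 (adjusted p = 0.0630).

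Inflammatory lists held few changes of either sign that were called in both settings. Of 26 Toll-like receptor genes 1 rose and 7 fell, of 25 interferon genes 2 rose and 7 fell, and of 22 cell death genes 1 rose and 6 fell, with medians of -0.04, -0.11 and -0.16. Over all targets 11.7% rose and 16.5% fell. Most of the Toll-like receptor genes have names in T, and 54.5% of all targets with such names were called lower. With the neighbours subtracted the counts of the 3 lists were 1 and 2, 0 and 1, and 0 and 3. Tlr4, the lipopolysaccharide receptor, measured 0.795, 0.861, 1.05 and 0.969 times the negative probe in MG-cKO regions, against 1.24, 1.35, 1.32 and 1.39 times in BMM-cKO regions, a change of -0.60 (SE 0.09, limma adjusted p = 3.63e-05). Tlr4 changed by -0.38 with the neighbours subtracted (limma adjusted p = 0.00533). Sting1, the sensor of cyclic dinucleotides, measured 1.18, 1.25, 1.47 and 1.51 times in MG-cKO regions, against 1.90, 1.97, 1.99 and 1.91 times in BMM-cKO regions, and fell by 0.59 (SE 0.08, limma adjusted p = 1.1e-05) or by 0.43 with the neighbours subtracted (limma adjusted p = 0.000400). Both groups of Tlr4 values lay near background, those of Sting1 above it in BMM-cKO. Casp1, the inflammasome protease (-0.48, limma adjusted p = 0.000118), and Bcl2l1, which encodes Bcl-xL (-0.43, limma adjusted p = 0.000649), fell in both settings too, and Bcl2l1 lost its call when region 5 was also left out (-0.25, adjusted p = 0.0757). Beside the same 11.7% and 16.5%, the counts of the remaining immune lists were small. Of 31 NF-kB and cytokine genes 4 rose and 4 fell (median 0.00), of 16 complement genes 2 rose and 2 fell, of 19 antigen presentation genes 1 rose, of 23 phagocytosis genes 2 rose and 3 fell, and of 18 genes of disease-associated microglia 2 rose and 1 fell.

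Among the genes of these lists Itgb3, the integrin beta 3 subunit, measured 1.2, 1.64, 1.65 and 1.89 times the negative probe in MG-cKO regions, against 2.09, 2.24, 2.32 and 2.20 times in BMM-cKO regions, and fell by 0.56 (SE 0.10, limma adjusted p = 0.000107). Its groups did not overlap, and it fell by 0.65 with the neighbours subtracted. Itgam, the CD11b integrin of myeloid cells, rose by 0.33 (limma adjusted p = 0.00325) to 1.16 ± 0.0596 times the negative probe in MG-cKO regions, against 0.880 ± 0.00528 times in BMM-cKO regions (SD, n = 4 each), and was not called with the neighbours subtracted (0.21, adjusted p = 0.0833). Ctsb, a lysosomal protease, rose by 0.53 (limma adjusted p = 0.0132; 0.61 with the neighbours subtracted), though not without region 6 (adjusted p = 0.0527) or 7 (adjusted p = 0.0645).

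Markers of blood-borne cells lay near background and were mixed in direction. These lists are short, and their counts stand beside 11.7% higher and 16.5% lower over all targets. Of 12 neutrophil markers 1 rose and 2 fell, Elane, neutrophil elastase (-0.57, limma adjusted p = 1.48e-05), and Il1r2, the decoy interleukin-1 receptor (-0.55, limma adjusted p = 9.75e-05), both also called with the neighbours subtracted (-0.57 and -0.31). Elane stood at 1.2 ± 0.145 times the negative probe in MG-cKO regions and 1.70 ± 0.0499 times in BMM-cKO regions (SD, n = 4 each). Il1r2 lost its call when region 5 was also left out (-0.30, adjusted p = 0.0621). Of 13 monocyte markers none rose and 2 fell, of 12 markers of border-associated macrophages none rose and 3 fell, of 12 lymphocyte markers 2 rose and 2 fell, and of 7 blood markers 1 rose and 1 fell. Of 16 endothelial markers 1 rose and 3 fell, of 16 mural and fibroblast markers none rose and 2 fell, of 12 choroid plexus and ependymal markers none rose and 1 fell, and of 10 oligodendrocyte precursor markers 1 rose and 2 fell. Of 7 Y-linked genes 1 rose and 3 fell, in regions that are all labelled male.

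The direction of change varied with the level, and not steadily. Of the 70 targets at 3 times the negative probe or more, 60 had a positive change, with a median of 0.49 (0.53 with the neighbours subtracted), 19 were called higher and 3 lower. Between 1.5 and 2 times the negative probe, 1431 targets had a median change of -0.16, with 143 called higher and 592 lower, and with the neighbours subtracted the median was -0.04, with 80 higher and 228 lower. The probes for receptors of smell and taste and for keratin-associated proteins spread less in MG-cKO regions: the SD of their log2 values was 0.311 ± 0.0331 in MG-cKO regions and 0.394 ± 0.0153 in BMM-cKO regions (SD, n = 4 each, exact two-sided permutation p = 0.0286, the smallest that 4 against 4 regions allow). This spread and the tag totals, both without overlap between the groups, moved with the falls of targets at 1 to 2 times the negative probe. Their part in those falls was not tested. The SDs were taken without subtracting the neighbours, and the part of the name-order steps in them was not tested either.

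**Figure D5:**
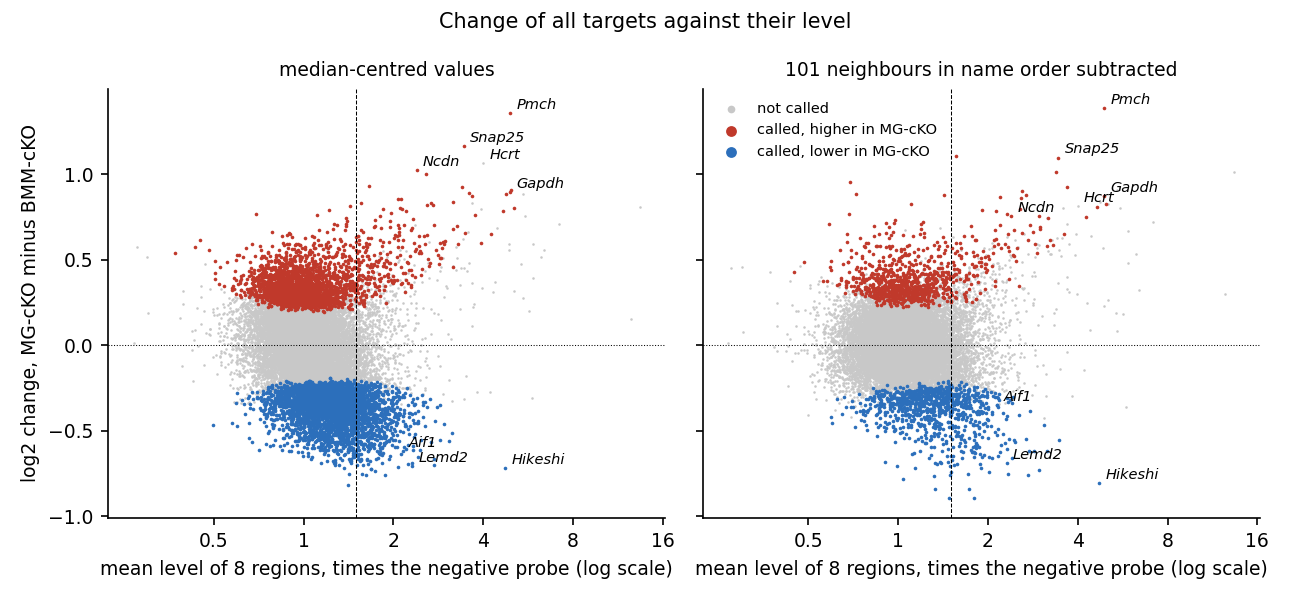
Log2 change, MG-cKO minus BMM-cKO males, of each target against its mean level over the 8 regions in multiples of the negative probe, with median-centred values in one panel and the running median of neighbours in name order subtracted in the other. Most targets right of a level of 3 lie above 0, and the dashed line marks a level of 1.5.

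WT males of the same scan lay mostly nearer to MG-cKO. For 16087 of 19962 targets (80.6%) the WT mean was nearer to the MG-cKO mean than to the BMM-cKO mean. Of the 237 targets called higher in MG-cKO regions at the mean level of 1.5 times the negative probe, 230 had a WT mean nearer to MG-cKO (97.0%), and so did 700 of the 701 called lower (99.9%), beside 1631 of all 1825 targets at that level (89.4%). The WT regions carry steps along the name order too, and their part in this nearness was not tested. Across targets, BMM-cKO male regions correlated at 0.612 to 0.715 with these WT regions. With regions of the other scan they correlated more highly, at 0.863 to 0.914 for WT females and 0.803 to 0.886 for BMM-cKO females. MG-cKO male regions correlated at 0.824 to 0.881 with WT males and at 0.701 to 0.870 with WT females. Which male group departs from a usual WT level was not tested. Snap25 averaged 4.84 ± 1.02 times the negative probe in MG-cKO regions, 2.04 ± 0.289 times in BMM-cKO regions and 4.36 ± 0.567 times in WT regions, and Sting1 1.35 ± 0.162, 1.95 ± 0.0427 and 1.30 ± 0.0509 times (SD, n = 4 each). Pmch was an exception, since its WT regions lay below both knockouts.

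In females on scan 3 the same contrast gave 1293 targets higher (6.48%) and 294 lower (1.47%) in MG-cKO regions. The rises were shared in part: of the 237 targets higher in males at the mean level of 1.5 times the negative probe, 42.6% were also called higher in females, beside 14.9% of all 1825 targets at that level. Of the 701 lower in males, 18 (2.57%) were called lower in females, beside 1.48% of those 1825. The direction was shared more often than the call. A positive change in females was seen in 129 of the 701 and in 212 of the 237, beside 917 of the 1825. The median female change of the 701 was small, at -0.10. Pan-neuronal markers rose in females in 17 of 22 cases with none lower, oxidative phosphorylation genes in 17 of 29 and synaptic genes in 13 of 17, while 1 of 24 ribosomal protein genes rose. Aldoa changed by 0.93 in males and 0.88 in females, and Thy1 by 1.00 and 1.01. The test of the difference between the scans called 1032 targets (5.17%), and 495 (2.48%) with the neighbours subtracted. Pmch rose in males and changed by 0.06 in females, a difference of 1.30 (limma adjusted p = 0.0125), and Nrgn rose by 0.85 in males and 2.37 in females, a difference of -1.51 (limma adjusted p = 0.00475). Both differences remained called with the neighbours subtracted.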

How the data were processed

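Tag signals of 24 brain regions in 6 groups of 4 were used, with 19962 targets and 1 negative probe. The deposited signal values are, from the values themselves, whole tags times 1 factor for each region, and the authors' factor gives equal geometric means within a group (174.93 in MG-cKO males, 388.198 in BMM-cKO males) and different ones between groups. The software behind it, per the labels, is not given in the sources used here, and probe sequences were not used. Values were turned into log2(value + 1), each region was centred on its median target, and limma 3.58.1 (R 4.3.3, lmFit and eBayes with trend) was fitted over all 24 regions with 6 group coefficients. Adjusted p-values are Benjamini-Hochberg over all targets, with a threshold of 0.05. Where a sentence gives further p-values after a limma adjusted p, these are limma adjusted p-values of the setting named beside them. Levels are values divided by the region's negative probe, and those of different probes are not compared as amounts. Single per-region measures were compared with exact permutation tests (scipy 1.17.1). The fitting code was checked on simulated data. Region pairs within a group differed by 1.15 to 3.10 times the counting noise (chi-square over degrees of freedom), so none was counted as a duplicate. Named genes are the 12 with the largest change in each direction at a mean level of at least 1.5, the 4 largest below it, up to 3 called members of each of 35 gene lists, and Lyn, Tmem119, Aif1, Pmch and Hcrt; some of the genes this selects are not reported here. The comparison, lists and rules were chosen with earlier results of these data known. Promoters are from RefSeq, GRCm38.p6. The alternatives were other scalings, pseudocounts, filters, sets of regions, each region left out, and the subtraction of neighbours in name order, which was added after the data were seen.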

Additional observations from a re-analysis of the deposited data

Results flagged for a closer look

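Dixon's test by chance picks about 1 in 20 groups, so several cases are expected among both groups of the 75 named genes. In 9 of these genes 1 region lay apart from the other 3 of its group by this test, a number of that order. In MG-cKO males these were region 5 for Rplp1 (2.03 times the negative probe) and Gpr55 (1.1 times) and region 6 for Itgam (1.07 times), each the lowest of its group. In BMM-cKO males they were region 4 for Hcrt (3.58 times, the highest) and Mt1 (1.55 times, the lowest), region 2 for Rplp2 (1.40 times) and Tuba1a (1.33 times), both the highest, and region 1 for Hsp90ab1 (1.83 times) and Faim2 (1.61 times), both the lowest.

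The change of MG-cKO against BMM-cKO differed between males on scan 2 and females on scan 3 in 1032 targets by limma's interaction test, and sex and scan cannot be told apart. Among the named genes the male change exceeded the female one by 1.30 in Pmch, 0.87 in Gpihbp1 and 0.53 in Rplp2. It lay below the female one for Nrgn (-1.51), Trmt12 (-0.64), Xcl1 (-0.64), Dlx5 (-0.64), Trmu (-0.63), Wnt2b (-0.62), Trim43a (-0.57), Yipf4 (-0.57), Vps54 (-0.53) and Gpr55 (-0.52). The same held for Trim26 (-0.51), Aif1 (-0.51), Tlr4 (-0.51), Wnt9a (-0.50), Traf6 (-0.49), Tor3a (-0.47), Sting1 (-0.47), Bcl2l1 (-0.43) and Agrp (-0.42). Of these 22 genes, 4 were also called with the neighbours in name order subtracted.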

How the results depend on the processing

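On the values as deposited, whose factor differs between the groups, no target was higher and 19907 were lower (0 and 1777 at a mean level of at least 1.5 times the negative probe), and 41 named changes turned sign. They became Hcrt -0.07, Cartpt -0.69, Ncdn -0.11, Thy1 -0.13, Nptx1 -0.20, Rtn1 -0.25, Atp1b1 -0.26, Gnao1 -0.28, Nefl -0.45, Nefm -0.43, Grin1 -0.54, Npas4 -0.67, Rasgrf2 -0.56, Nrgn -0.28, Rbfox1 -0.35, Cbln1 -0.32, Fam234b -0.38, Gpihbp1 -0.37, Aldoa -0.21, Gapdh -0.24 and Gpi1 -0.43. The others became Fth1 -0.23, Mt1 -0.31, Mt3 -0.64, Cox6a1 -0.46, Ndufb9 -0.69, Ndufa9 -0.80, Rplp0 -0.70, Rplp1 -0.55, Rplp2 -0.73, Hsp90ab1 -0.61, Hspa8 -0.58, P2ry13 -0.87, Selplg -0.83, C1qb -0.89, Mbp -0.51, Itgam -0.81, Ctsb -0.60, Tecr -0.49, Tuba1a -0.31 and Faim2 -0.30. Division by the negative probe gave 3694 targets higher, and 685 that differed between the scans. Subtracting the negative probe gave 598 higher and 565 lower among the targets left, and keeping only targets above the median target gave 2035 lower, with fewer targets tested in both. Quantile normalization gave 452 higher at the mean level of 1.5. Subtracting the running median of 50 neighbours a side in name order gave 899 higher and 913 lower (134 and 282 at that level) and 495 that differed between the scans, and 150 neighbours a side gave 1206 and 1209 (152 and 376) and 518. With 50 neighbours a side and without region 5 the values were 834 and 640, 169 lower at that level and 364, and with 50 neighbours a side after quantile normalization 1393 lower, 408 and 368 at that level and 514. Tmem119 turned to 0.16, 0.12, 0.11 and 0.11 in these 4 settings. The causes were not tested.

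Leaving out each region in turn gave 1573 to 2062 targets higher and 2548 to 3206 lower, and 131 to 318 higher and 550 to 719 lower at the mean level of 1.5. The difference in how many targets exceeded 2 times the negative probe (0.148 percentage points) ranged from -0.0856 to 0.642 and was -0.00543 without region 6 and -0.0856 without region 7, and with a level of 1.5 times it was -1.24. The difference in the spread of the receptor and keratin-associated probes ranged from -0.0904 to -0.0671, each with an exact p of 0.0571, the smallest that 3 against 4 regions allow. Of the 75 named genes, 56 kept direction and side of the threshold with 50 neighbours a side subtracted, 73 without region 5, and 66 to 71 without any one of the other regions. No paired analysis was possible because the regions of the groups carry different numbers and no label ties regions of different groups to 1 slice or animal. The edgeR test on recovered tags was not run. Low signal over background limits most targets, and regions that may share an animal limit every p-value.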

Other observations

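At a mean level of at least 1.5 times the negative probe, 97 targets were called higher and 157 lower in MG-cKO males in each of 4 settings, namely the designed fit, the fit with 50 neighbours a side subtracted, the fit without region 5 and the fit with both. Without region 5, 16 targets at that level were called more than 2-fold higher and none more than 2-fold lower in MG-cKO regions. Background was not subtracted in these fold differences, which limits how far a target near it can fall.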
